A study of Mus musculus with 10 samples.

Results

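Gm symbols are provisional names that mouse nomenclature gives to gene models predicted from sequence, before a gene is named for its function. The 103 Gm gene models described here came from the 53819 gene symbols of the count tables. They were those whose symbol was Gm followed by digits and whose mean over the 10 libraries was at least 5 CPM (counts per 1000000 counts of the library). They were thus chosen by their mean level, which is given as a description. Of 24883 Gm symbols, 4341 had at least 1 count in some library, and the 103 models held 82.8% of all counts assigned to Gm symbols.

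The libraries were made from platelets of P7 mice, read here as postnatal day 7, and of adult mice, with 5 libraries at each age, which the labels tell apart by letter (P7 A, B, C, E, I; adult A, B, C, G, H). The labels name no treatment and no genetic change in either group, with strain, sex, the age of the adults in days and any pooling of animals not given in the sources used here. Libraries were labelled as polyA RNA and were made from 1 ng of total RNA by amplification of full-length cDNA, with single-end reads of 75 nt. Nothing in the labels says that libraries came from separate animals, so p-values measure only the spread between these libraries, which may be technical.

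Platelets have no nucleus and carry RNA that they received from megakaryocytes, their parent cells. Most Gm models fall into a few kinds. Long noncoding RNAs are transcripts with no known protein, and some lie on the strand opposite a coding gene. Processed pseudogenes are copies of mRNAs that were reverse-transcribed back into the genome, so that their reads can resemble those of the parent gene. For the counts, the genome build was not given in the sources used here. Types and neighbours were looked up by symbol in GENCODE M21 (98 of the 103 models) and RefSeq (72 models), both of the GRCm38 assembly, with 2 models in neither.

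By GENCODE type, 57 of the models were long noncoding RNAs, 27 pseudogenes, 7 protein coding, 6 awaiting experimental confirmation and 1 a small nuclear RNA, and 5 had no entry. The 101 models with a listed chromosome were spread over 19 chromosomes, and 0 of them lay on X or Y. Of the models, 36 had a single annotated exon. Exons of 21 models overlapped an exon of a gene on the opposite strand and those of 5 models an exon on the same strand, while 28 models lay within or around another gene without sharing an exon. The library kit does not mark strand and the strand setting of the counting is not stated, so the values of overlapping models are uncertain.

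Library totals ran from 19431863 to 25029931 counts at P7 and from 19541997 to 23291269 counts in adults. At 0 counts, 3 counts of the total set the limit of detection, 0.120 to 0.154 CPM by library, a limit that covers counting error only. The summed level of 15 platelet genes such as Pf4 was 64530 to 88844 CPM at P7, against 63386 to 94784 CPM in adults, with levels here and below scaled by TMM factors unless stated otherwise. Of these 15 genes, 5 were higher and 3 lower at P7 by the test given below, so similar sums do not mean unchanged genes. P7 I was the highest of the 5 P7 libraries for 67 of the 103 models, and adult H the highest of the 5 adult libraries for 39. These counts were not made over all genes, so they are not shown to be particular to the Gm models. Y-linked transcripts (Ddx3y, Uty, Kdm5d and Eif2s3y) summed to 7.28 to 11.4 CPM in the P7 libraries, to 30.6 CPM in adult A and 29.6 CPM in adult B, and were at 0 counts in adult C, G and H, so the adult libraries were of 2 kinds in this measure.

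The 103 models took 0.257 to 0.346% of the counts of a P7 library and 0.362 to 0.453% of those of an adult library. The mean share was 0.285% ± 0.0364 at P7, against 0.407% ± 0.0344 in adult libraries (mean ± SD, n = 5 each), and the ranges did not overlap. The highest P7 share was that of P7 I. Counting every Gm symbol at any level, the shares were 0.320 to 0.420% at P7 and 0.438 to 0.532% in adults. A few models carried most of this signal, with 35.2% of the summed mean CPM in the first 3 and 64.1% in the first 15. By mean level, 5 models reached 100 CPM, 33 lay between 20 and 100 CPM and 65 between 5 and 20 CPM.

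All 103 models passed the filter on low counts and were tested within a fit over 8198 genes. With edgeR's quasi-likelihood test and Benjamini-Hochberg adjustment over all of them, 11 models rose at P7 and 32 fell, at an adjusted p under 0.05, which is the meaning of called below, and 60 were not called. Of the Gm models 10.7% rose and 31.1% fell, while of all genes tested 13.8% rose and 13.9% fell, 27.7% in either direction. Among the 3743 tested genes that also averaged at least 5 CPM, 16.5% rose and 21.9% fell, 38.4% in either direction. The median log2 fold change, P7 over adult throughout, was -0.30 over the models, -0.06 over tested genes of at least 5 CPM and 0.05 over all genes tested.

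Without P7 I, 10 models rose and 37 fell, and the median over the models was -0.46. Because the rule averages both ages, a model can enter through 1 age: 76 models averaged at least 5 CPM in both ages, 17 in adults alone and 10 at P7 alone. Of the 76, 7 rose and 20 fell, with a median of -0.25. A model that entered through its higher age alone had to differ to some extent, so the 27 such models are given below by their values, without a p. The 5 P7 and 5 adult values did not overlap for 27 models, 7 of them higher and 20 lower at P7 (4 and 12 among the 76), while 10.1% of all genes tested lay wholly above and 9.76% wholly below, 19.8% in all. Among tested genes of at least 5 CPM these shares were 11.6%, 15.3% and 26.9%. A change of at least 2-fold was called for 6 models that rose and 23 that fell, and 41 models had a log2 fold change between -0.5 and 0.5.

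**Figure D1:**
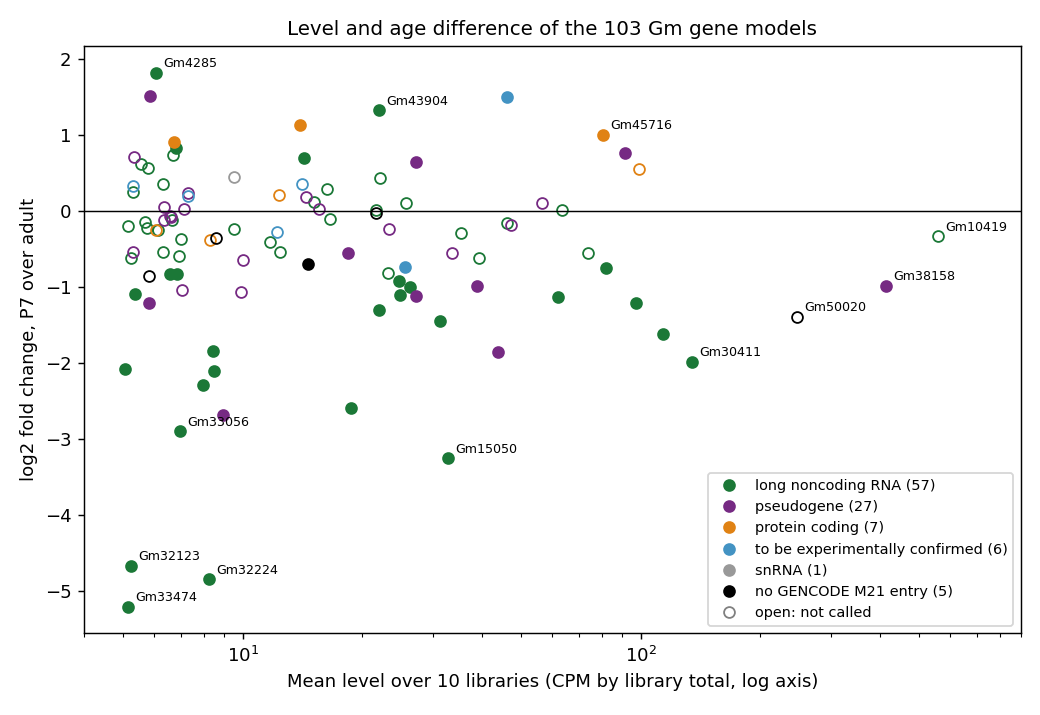
Each point is 1 of the 103 Gm models, with its mean CPM over 10 libraries on the horizontal log axis and its log2 fold change, P7 over adult, on the vertical axis; colour gives the GENCODE type and filled points were called. The 32 filled points below 0 outnumber the 11 above it, and the lowest points are long noncoding RNAs near the minimum of 5 CPM.

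Other provisional symbols moved in a like way. Of 85 RIKEN cDNA models of at least 5 CPM, 10 rose and 25 fell, with a median log2 fold change of -0.24. Of 14 other clone symbols, 1 rose and 5 fell. Among 3541 genes with other symbols, 594 (16.8%) rose and 758 (21.4%) fell, with a median of -0.05. Of 72 genes of at least 5 CPM with a long noncoding type and no Gm symbol, 7 rose and 27 fell, with a median of -0.39, so the balance seen in the Gm models was also present in noncoding RNAs named otherwise.

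Long noncoding models made up most of the falls. Of the 57, 4 rose, 23 fell (40.4%) and 30 were not called, with a median log2 fold change of -0.54, and without P7 I 3 rose and 26 fell. Among the 39 of at least 5 CPM in both ages, 2 rose and 13 fell, with a median of -0.41. Among the 30 classed as intergenic (lincRNA), 1 rose and 14 fell (46.7%), beside 2 and 22 (41.5%) of all 53 tested lincRNAs of at least 5 CPM. Among the 14 classed as antisense, 1 rose and 6 fell (42.9%), beside 4 and 15 (41.7%) of all 36 tested antisense RNAs of at least 5 CPM. These larger sets hold the Gm models, and the shares that fell were close.

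Gm32224 and its neighbour Gm32123, both long noncoding RNAs on chromosome 14, were close to undetected at P7. Gm32224 had 0.724, 0.672, 0.241, 0.480 and 0.685 CPM in P7 A, B, C, E and I, against 17.9, 18.4, 14.8, 11.8 and 18.4 CPM in adult A, B, C, G and H. Every adult library was above every P7 library, and the means were 0.560 ± 0.202 CPM at P7, against 16.3 ± 2.90 CPM in adult libraries (mean ± SD, n = 5 each). The log2 fold change was -4.85 ± 0.30 (SE), which is given as a description because this model was named with the rule and reached 5 CPM in adults alone. These P7 levels rest on 6 to 18 counts per library.

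Gm32123 had 0.604, 0.413, 0, 0.280 and 0.730 CPM in P7 A, B, C, E and I, against 11, 9.15, 9.51, 9.77 and 12.5 CPM in adult A, B, C, G and H. The log2 fold change was -4.67 ± 0.49 (SE), as a description, with the P7 C library at 0 counts. The nearest coding gene of both models in GENCODE M21 is Zmiz1, a transcriptional coregulator, 323333 bases from Gm32224 and 346259 bases from Gm32123, which was low at both ages, at 1.08 ± 0.817 CPM at P7, against 0.473 ± 0.228 CPM in adult libraries (mean ± SD, n = 5 each). Its log2 fold change of 1.20 ± 0.65 (SE) did not pass the test (edgeR adjusted p = 0.188).

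Gm33056, the other model named with the rule, had 1.69, 1.5, 1.00, 1.96 and 2.19 CPM in P7 A, B, C, E and I, against 13.5, 12.2, 14.7, 9.42 and 12.6 CPM in adult A, B, C, G and H. The groups did not overlap, the means were 1.67 ± 0.455 CPM at P7, against 12.5 ± 1.96 CPM in adult libraries (mean ± SD, n = 5 each), and the log2 fold change was -2.90 ± 0.25 (SE), as a description. Its nearest coding gene is Olig3, 30716 bases away, a transcription factor known from the developing nervous system, which averaged 0.107 ± 0.192 CPM at P7, against 1.06 ± 0.617 CPM in adult libraries (mean ± SD, n = 5 each). Olig3 fell by 3.21 ± 0.88 (SE) on the log2 scale (edgeR adjusted p = 0.0141), at levels near the limit of detection at P7.

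The lowest log2 fold change among the 103 was that of Gm33474, a long noncoding RNA on chromosome 5 that entered just above the minimum of 5 CPM through its adult libraries. It had 0.0402, 0.103, 0.161, 0.840 and 0.137 CPM in P7 A, B, C, E and I, against 2.20, 13.1, 24.6, 8.23 and 1.49 CPM in adult A, B, C, G and H. The log2 fold change was -5.21 ± 0.98 (SE), as a description, and limma-voom, at -5.11, did not call this model. The P7 values rest on 1 to 21 counts, and the adult values spread 16.5 times from lowest to highest.

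Gm15050 lies across the Hoxa3 locus on the opposite strand, without exon overlap. It had 4.87, 4.34, 3.98, 3.44 and 15.3 CPM in P7 A, B, C, E and I, against 97.1, 55.2, 38.7, 54.8 and 59.7 CPM in adult A, B, C, G and H, and fell by 3.26 ± 0.43 (SE) on the log2 scale (edgeR adjusted p = 0.000192). P7 I was the highest of its P7 libraries and still below every adult library. Hoxa3, a homeobox transcription factor gene, had 0 counts in all 10 libraries.

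The promoters of these 4 models are shown because the RNAs had the 4 lowest log2 fold changes among models with a promoter entry, and those of Gm4285 and Gm42517, described further on, because they had the highest among called models with one. Each is the RefSeq sequence from 250 bases before to 50 bases after an annotated start, written 5′ to 3′ on the strand of the gene. Capitals mark CpG dinucleotides, the sites of DNA methylation, which are dense in CpG-island promoters.

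Gm33474 (GRCm38.p6, chr5:107048327-107048626, plus strand): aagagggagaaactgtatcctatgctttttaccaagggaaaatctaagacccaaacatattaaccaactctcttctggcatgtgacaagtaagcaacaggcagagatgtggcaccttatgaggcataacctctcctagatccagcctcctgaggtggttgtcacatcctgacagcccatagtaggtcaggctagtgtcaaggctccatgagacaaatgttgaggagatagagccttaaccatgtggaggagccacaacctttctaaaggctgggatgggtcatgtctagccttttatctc

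Gm32224 (GRCm38.p6, chr14:25127769-25128068, plus strand): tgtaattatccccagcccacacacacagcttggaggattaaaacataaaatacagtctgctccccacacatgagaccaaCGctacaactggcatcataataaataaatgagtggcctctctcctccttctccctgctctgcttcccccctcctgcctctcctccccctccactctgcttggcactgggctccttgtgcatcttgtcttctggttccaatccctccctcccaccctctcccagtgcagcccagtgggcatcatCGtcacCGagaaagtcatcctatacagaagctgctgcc

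Gm32123 (GRCm38.p6, chr14:25109011-25109310, plus strand): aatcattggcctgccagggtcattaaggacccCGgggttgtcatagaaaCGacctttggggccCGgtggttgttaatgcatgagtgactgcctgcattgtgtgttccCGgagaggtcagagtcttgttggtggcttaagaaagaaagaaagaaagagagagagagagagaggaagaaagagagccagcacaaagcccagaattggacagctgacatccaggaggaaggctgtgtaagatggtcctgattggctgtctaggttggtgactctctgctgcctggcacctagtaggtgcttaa

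Gm15050 (GRCm38.p6, chr6:52172631-52172930, plus strand): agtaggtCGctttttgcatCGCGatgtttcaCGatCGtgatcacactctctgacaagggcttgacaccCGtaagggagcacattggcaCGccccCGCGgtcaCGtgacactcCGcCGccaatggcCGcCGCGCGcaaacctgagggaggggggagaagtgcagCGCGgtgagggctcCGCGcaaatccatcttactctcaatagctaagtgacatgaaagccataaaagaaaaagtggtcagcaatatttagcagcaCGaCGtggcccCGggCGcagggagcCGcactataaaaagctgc

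Gm4285 (GRCm38.p6, chr14:75844915-75845214, minus strand): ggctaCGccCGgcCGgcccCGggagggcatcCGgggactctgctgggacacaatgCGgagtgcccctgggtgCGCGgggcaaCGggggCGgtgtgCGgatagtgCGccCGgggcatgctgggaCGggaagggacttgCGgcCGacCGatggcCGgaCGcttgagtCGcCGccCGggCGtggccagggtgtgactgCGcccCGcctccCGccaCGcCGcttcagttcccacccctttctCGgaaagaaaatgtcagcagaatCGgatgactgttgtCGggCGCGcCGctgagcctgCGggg

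Gm42517 (GRCm38.p6, chr5:108367868-108368167, minus strand): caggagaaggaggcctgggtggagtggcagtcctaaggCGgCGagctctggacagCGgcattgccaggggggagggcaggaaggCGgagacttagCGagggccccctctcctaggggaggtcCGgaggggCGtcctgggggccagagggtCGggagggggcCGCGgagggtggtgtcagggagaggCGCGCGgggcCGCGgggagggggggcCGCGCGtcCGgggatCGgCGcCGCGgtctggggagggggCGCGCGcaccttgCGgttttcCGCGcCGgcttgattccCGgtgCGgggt

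The promoters of Gm33474, Gm32224 and Gm32123 held 0, 3 and 4 CpG dinucleotides, against 25 in that of Gm15050, 35 in that of Gm4285 and 32 in that of Gm42517. Their GC contents were 46.7%, 53.3%, 51.0%, 57.0%, 71.7% and 75.3% in the same order. Of the 103 models 40 had a RefSeq promoter, and the median GC content was 71.7% for the 3 that rose, 47.7% for the 15 that fell, 56.0% for the 22 not called and 52.7% for all 27025 promoters. Across transcripts the same order was seen, with median exonic GC contents of 55.2% for models that rose and 49.3% for models that fell, beside 52.4% for all tested genes that rose and 45.7% for all that fell.

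Short motifs of factors known in megakaryocytes were searched on both strands of these 300 bases, each on its own, so that matches of different motifs may overlap. The letters AGATAA, bound by factors of the GATA family, were in 7 of the 40 promoters and in 11.4% of all promoters. The letters CCGGAA, bound by ETS factors, were in 4 of the 40 and in 15.2% of all. The letters TGTGGT, bound by RUNX factors, were in 5 of the 40 and in 16.9% of all. The box TATAAA, found near the start of some promoters, was in 7 of the 40 and in 14.2% of all. Among the 6 promoters printed, the GATA family motif was found in that of Gm33474 and the TATA box in that of Gm15050.

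Several long noncoding models of higher CPM also fell. Gm30411, the fourth by mean CPM, had 49.3, 52.5, 35.9, 44.5 and 94.0 CPM in P7 A, B, C, E and I, against 233, 221, 198, 167 and 276 CPM in adult A, B, C, G and H. It fell by 1.99 ± 0.24 (SE) on the log2 scale (edgeR adjusted p = 4.79e-05) with no overlap, and P7 I stood above the other P7 libraries. Its nearest coding gene, Ipo11, 32860 bases away, which encodes a nuclear import receptor, fell by 0.75 ± 0.14 (SE) on that scale.

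Gm1968 and Gm26569 are neighbours of each other on chromosome 16 and fell together. Gm1968 had 48.1, 48.0, 50.5, 52.5 and 83 CPM in P7 A, B, C, E and I, against 207, 181, 125, 176 and 181 CPM in adult A, B, C, G and H, a log2 fold change of -1.63 ± 0.19 (SE; edgeR adjusted p = 4.15e-05). Gm26569 averaged 17.0 ± 5.28 CPM at P7, against 46.7 ± 10.8 CPM in adult libraries (mean ± SD, n = 5 each), a log2 fold change of -1.46 ± 0.23 (SE; edgeR adjusted p = 0.000393). Their nearest coding gene, Hes1, 85200 bases from Gm1968 and 117630 bases from Gm26569, a Notch target and transcriptional repressor, had 34 counts over the P7 libraries and 25 over the adult libraries.

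Gm38414 averaged 39.3 ± 15.3 CPM at P7, against 86.0 ± 9.82 CPM in adults, and fell by 1.13 ± 0.22 (SE) on the log2 scale (edgeR adjusted p = 0.00148; SD, n = 5 each). Gm43672 averaged 61.8 ± 14.2 CPM at P7, against 104 ± 14.2 CPM in adults, and fell by 0.75 ± 0.17 (SE; edgeR adjusted p = 0.00541). Gm13842 averaged 59.4 ± 24.4 CPM at P7, against 138 ± 57.5 CPM in adults, and fell by 1.21 ± 0.30 (SE; edgeR adjusted p = 0.00883), with overlap between the ages because P7 I, at 102 CPM, was above the lowest adult library, at 74.0 CPM. Of these 3, the groups did not overlap for Gm38414 and Gm43672.

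Further noncoding models with fewer CPM were lower at P7 without overlap, and the first 3 of these, which reached 5 CPM in adults alone, are given as a description. Gm35041 averaged 2.73 ± 1.19 CPM at P7, against 13.5 ± 2.53 CPM in adults, a log2 fold change of -2.30 ± 0.28 (SE). Gm15283, which overlaps exons of Hif1a on the opposite strand, averaged 3.26 ± 1.66 CPM at P7, against 14.0 ± 3.70 CPM in adults, a log2 fold change of -2.11 ± 0.37 (SE). Gm34590 averaged 1.96 ± 0.231 CPM at P7, against 8.31 ± 1.03 CPM in adults, a log2 fold change of -2.08 ± 0.21 (SE). Gm28417, opposite exons of the phosphatase gene Ptpn18, averaged 12.8 ± 3.02 CPM at P7, against 31.7 ± 2.81 CPM in adults, a log2 fold change of -1.31 ± 0.19 (SE; edgeR adjusted p = 0.000179).

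**Figure D2:**
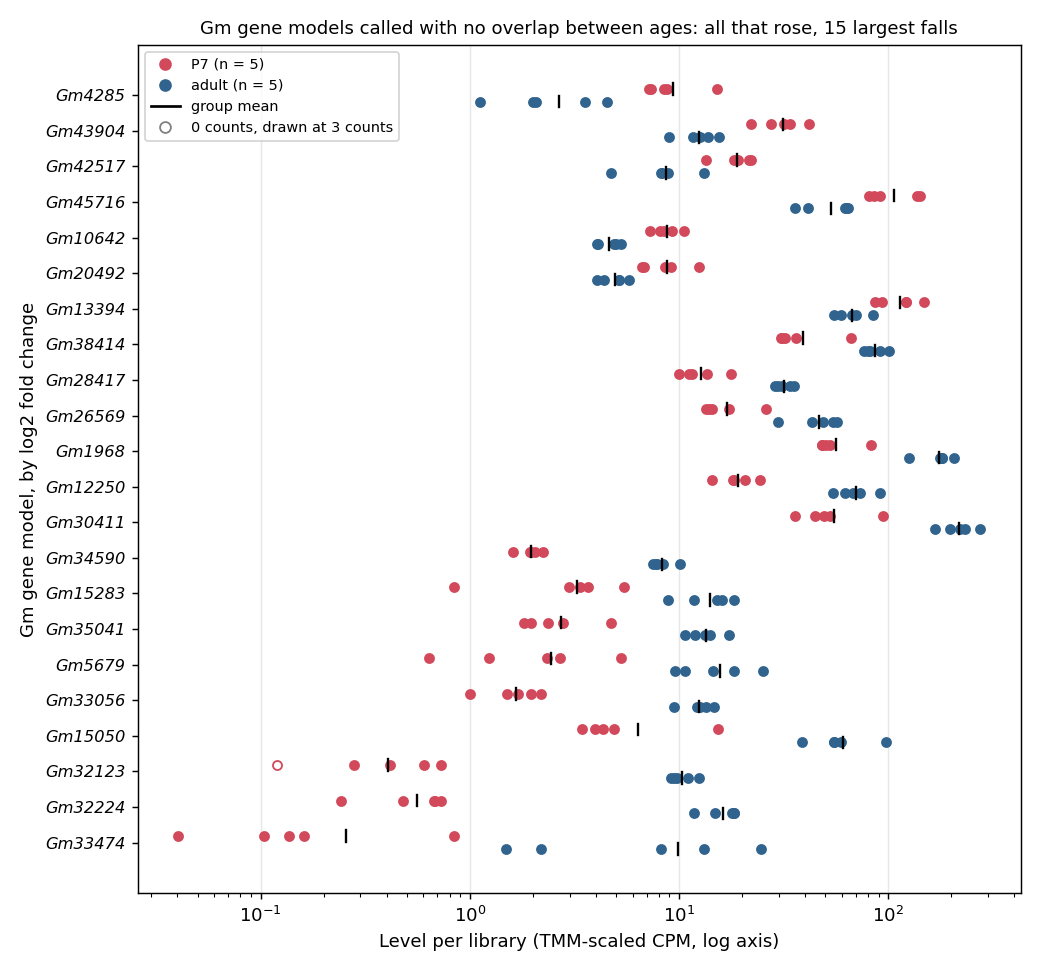
TMM-scaled CPM of each library on a log axis for the 7 called models that lay wholly higher at P7 and the 15 largest falls without overlap, with P7 libraries drawn above adult libraries in each row and a bar at the group mean. Gm33474, Gm32224 and Gm32123 at the bottom lie below 1 CPM in every P7 library, and the open point is the P7 C library of Gm32123, drawn at the limit of 3 counts.

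Among the 4 long noncoding models that rose, Gm4285, which reached 5 CPM at P7 alone, had the highest fold change. It lies 129 bases from Tpt1, the gene of a translationally controlled tumour protein, on the opposite strand. Gm4285 had 8.45, 15.2, 7.16, 7.36 and 8.72 CPM in P7 A, B, C, E and I, against 2.0, 2.06, 1.12, 3.56 and 4.53 CPM in adult A, B, C, G and H, a log2 fold change of 1.82 ± 0.35 (SE), as a description. P7 B was the highest library. Tpt1 itself averaged 81.3 ± 14.0 CPM at P7, against 62.4 ± 12.6 CPM in adult libraries (mean ± SD, n = 5 each) and was not called (log2 fold change 0.38 ± 0.18, SE; edgeR adjusted p = 0.125).

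Gm43904 lies 592 bases from Gp9, which encodes a subunit of the platelet receptor for von Willebrand factor, on the same strand. It had 31.7, 33.7, 41.8, 22.0 and 27.6 CPM in P7 A, B, C, E and I, against 15.6, 11.6, 8.97, 12.6 and 13.8 CPM in adult A, B, C, G and H. It rose by 1.33 ± 0.21 (SE) on the log2 scale (edgeR adjusted p = 0.000388) with no overlap. Gp9 averaged 3372 ± 310 CPM at P7, against 1835 ± 356 CPM in adult libraries (mean ± SD, n = 5 each) and rose by 0.88 ± 0.14 (SE; edgeR adjusted p = 0.000443).

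Gm20492, which overlaps Mbd6 on the opposite strand, averaged 8.71 ± 2.34 CPM at P7, against 4.92 ± 0.694 CPM in adult libraries (mean ± SD, n = 5 each), a log2 fold change of 0.82 ± 0.23 (SE), also a description, since it reached 5 CPM at P7 alone. The fourth, Gm15912, rose by 0.70 ± 0.22 (SE; edgeR adjusted p = 0.0291) with overlapping ages and is named here after its values were seen.

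The model with the highest mean CPM was not called. Gm10419, a long noncoding RNA, had 586, 645, 359, 363 and 495 CPM in P7 A, B, C, E and I, against 439, 591, 947, 890 and 220 CPM in adult A, B, C, G and H. The adult libraries spanned the whole P7 range, and the log2 fold change was -0.33 ± 0.34 (SE; edgeR adjusted p = 0.506). Gm28609 and Gm15564, both antisense models of more than 60 CPM, had log2 fold changes of -0.55 ± 0.60 and 0.01 ± 0.19 (SE) and were not called either (edgeR adjusted p = 0.542 and 0.982).

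Of the 27 pseudogenes, 3 rose (11.1%), 7 fell (25.9%) and 17 were not called, with a median log2 fold change of -0.19, and without P7 I 3 rose and 8 fell. These shares lie near the 16.5% and 21.9% of all tested genes of at least 5 CPM. Among the 21 pseudogenes of at least 5 CPM in both ages, 2 rose and 5 fell, with a median of -0.12. Gm38158, the second by mean CPM, is annotated as a processed pseudogene within an intron of Sdccag8. It had 262, 286, 314, 237 and 303 CPM in P7 A, B, C, E and I, against 674, 568, 485, 509 and 539 CPM in adult A, B, C, G and H, and fell by 0.98 ± 0.14 (SE) on the log2 scale (edgeR adjusted p = 0.000151). The groups did not overlap. Its annotated length is 339 bases, and per kilobase of exon its level of 1220 CPM was the highest among the 98 models with a length, above 159 CPM per kilobase for Gm28609, the next.

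The gene that shares most sequence with Gm38158 is Hmga2, a chromatin protein of fetal and stem cells, though only 4.15% of its 75-base words were found there. Hmga2 averaged 30.2 ± 7.37 CPM at P7, against 58.0 ± 12.9 CPM in adult libraries (mean ± SD, n = 5 each) and fell by 0.94 ± 0.20 (SE) on the log2 scale (edgeR adjusted p = 0.00332). Sdccag8, whose intron holds the model, averaged 9.60 ± 1.47 CPM at P7, against 11.9 ± 2.15 CPM in adults and was not called (log2 fold change -0.31 ± 0.19, SE; edgeR adjusted p = 0.267).

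Gm12250 is a processed pseudogene in GENCODE M21 but a coding gene in RefSeq, where it carries the synonym Irgb10, an interferon-inducible GTPase of innate immunity. It had 18.1, 24.4, 20.7, 14.4 and 18.3 CPM in P7 A, B, C, E and I, against 73.5, 91.0, 61.9, 54.6 and 68.1 CPM in adult A, B, C, G and H. It fell by 1.86 ± 0.19 (SE) on the log2 scale (edgeR adjusted p = 1.54e-05), with no overlap, and 0% of its 75-base words occurred in transcripts of another gene. Gm5679 averaged 2.43 ± 1.78 CPM at P7, against 15.7 ± 6.40 CPM in adult libraries (mean ± SD, n = 5 each), a log2 fold change of -2.69 ± 0.47 (SE), as a description, since it reached 5 CPM in adults alone.

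Pseudogene values can hold reads of the genes they were copied from, so each model was compared with transcripts that share its sequence. Of the 103 models 45 shared at least 1 word of 75 bases, the read length, with another gene, 29 shared at least 10% of their words and 7 at least 50%. For 13 pseudogenes that shared at least 10% with a tested gene, the log2 fold changes of pseudogene and gene had the same sign in 10 pairs and the same call in 12, with opposite calls in 0. Pearson's r across these 13 pairs was 0.85 and Spearman's rho 0.75, as a description, since the members of a pair share libraries and may share reads.

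Gm13394 shared 91.9% of its words with Gapdh, a glycolytic enzyme gene. It had 86.3, 122, 148, 121 and 93.5 CPM in P7 A, B, C, E and I, against 66.9, 84.2, 59.8, 70.4 and 55.0 CPM in adult A, B, C, G and H, and rose by 0.76 ± 0.18 (SE) on the log2 scale (edgeR adjusted p = 0.00549). Gapdh averaged 390 ± 65.2 CPM at P7, against 226 ± 37.9 CPM in adult libraries (mean ± SD, n = 5 each) and rose by 0.78 ± 0.16 (SE; edgeR adjusted p = 0.00194). The changes of the 2 rows thus differed by less than their standard errors.

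The other pairs in which both were called, named after their values were seen, were those of Gm3375 and Gm4202. Gm3375 shared 40.9% of its words with Psmb5, a catalytic subunit of the proteasome, and the pair had log2 fold changes of 0.65 ± 0.18 and 0.71 ± 0.18 (SE; edgeR adjusted p = 0.0139 and 0.00846). Gm4202 shared 89.4% of its words with Ywhaz, a 14-3-3 protein gene, and the pair had log2 fold changes of -0.55 ± 0.17 and -0.44 ± 0.11 (SE; edgeR adjusted p = 0.0280 and 0.00982). In CPM, which is not divided by length, Gm3375 was at 94.8% of Psmb5 and Gm4202 at 1.04% of Ywhaz. Gm7809, listed by RefSeq as a copy of the tropomyosin gene Tpm4, had a log2 fold change of 0.10 ± 0.22 beside 0.05 ± 0.17 for Tpm4 (SE), and both rows were not called. Other pairs were less alike. Gm10123, all of whose words occur in Ppia, had a log2 fold change of -0.23 ± 1.43 (SE) and was not called, while Ppia fell (-0.63 ± 0.13, SE; edgeR adjusted p = 0.00221). Gm6055, with 75.3% of its words in Map1lc3b, had -0.12 ± 0.23 beside 0.12 ± 0.13 for Map1lc3b (SE), opposite in sign, and both were not called (edgeR adjusted p = 0.720 and 0.542).

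**Figure D3:**
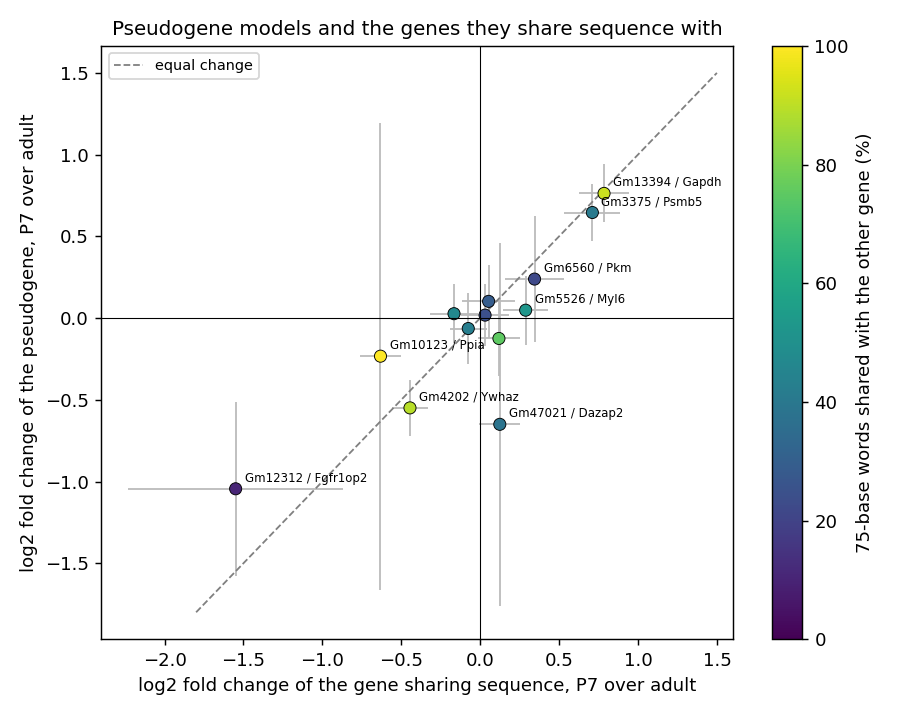
Log2 fold change, P7 over adult, of 13 pseudogene models (vertical) against that of the gene sharing at least 10% of their 75-base words (horizontal), with bars of 1 SE and colour for the share of words. Most points lie near the line of equal change, and Gm10123, Gm47021 and Gm12312 have wide vertical bars.

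The 7 models of the GENCODE type protein coding had 3 rises and 0 falls, the same without P7 I. Over all 3474 tested protein coding genes of at least 5 CPM, 16.8% rose and 21.1% fell. Among the coding models that reached 5 CPM in both ages, 2 of 6 rose and 0 fell. Of the 6 that RefSeq lists as protein coding, 1 rose and 2 fell, the falls being those of Gm12250 and Gm10499, which are pseudogenes in GENCODE M21. Gm42517, which RefSeq also lists as Tmem271, a predicted transmembrane protein, had 21.5, 22.2, 19.1, 18.3 and 13.5 CPM in P7 A, B, C, E and I, against 8.16, 8.85, 8.29, 13.1 and 4.70 CPM in adult A, B, C, G and H. It rose by 1.13 ± 0.25 (SE) on the log2 scale (edgeR adjusted p = 0.00371), and the lowest P7 library was just above the highest adult library. Its exons overlap those of Gm10419 on the opposite strand, at 7.55 CPM per kilobase of exon for Gm42517 and 81.2 for Gm10419, so its values are uncertain.

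Gm45716 had 80.6, 91.0, 137, 85.3 and 142 CPM in P7 A, B, C, E and I, against 41.3, 35.8, 63.0, 62.4 and 64.3 CPM in adult A, B, C, G and H. It rose by 1.00 ± 0.22 (SE) on the log2 scale without overlap (edgeR adjusted p = 0.00388). It shares exon sequence on the same strand with Mmd, a progestin and adipoQ receptor family gene, which went the other way: Mmd averaged 1009 ± 221 CPM at P7, against 1705 ± 471 CPM in adult libraries (mean ± SD, n = 5 each) and fell by 0.76 ± 0.20 (SE; edgeR adjusted p = 0.0120). Gm10642 averaged 8.73 ± 1.26 CPM at P7, against 4.65 ± 0.546 CPM in adult libraries (mean ± SD, n = 5 each), a log2 fold change of 0.91 ± 0.20 (SE), as a description, since it reached 5 CPM at P7 alone. Gm16286, at a mean of 99.0 CPM the first of the coding models, had a log2 fold change of 0.55 ± 0.26 (SE) and was not called (edgeR adjusted p = 0.125).

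Of the 6 models awaiting confirmation, 1 rose and 1 fell. The one that rose, Gm49553, lies within Grap2, which encodes an adaptor of immune receptor signalling, and is named here after its values were seen. It had 76.4, 68.7, 89.9, 83.7 and 17.2 CPM in P7 A, B, C, E and I, against 32.0, 18.7, 15.4, 27.0 and 25.2 CPM in adult A, B, C, G and H. It rose by 1.5 ± 0.36 (SE) on the log2 scale (edgeR adjusted p = 0.00704), with P7 I inside the adult range. Grap2 rose by 1.37 ± 0.22 (SE; edgeR adjusted p = 0.000393). The single small nuclear RNA, Gm22107, and 4 of the 5 models without a GENCODE entry were not called.

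The third model by mean CPM, Gm50020, was in neither annotation table. It had 31.7, 77.5, 31.0, 110 and 447 CPM in P7 A, B, C, E and I, against 279, 248, 126, 682 and 495 CPM in adult A, B, C, G and H. The log2 fold change of -1.39 ± 0.83 (SE) was not called with all libraries (edgeR adjusted p = 0.258), and it was -2.56 ± 0.61 (SE) and called without P7 I (edgeR adjusted p = 0.0141).

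To ask whether the models moved with the genes around them, each was set beside its nearest coding gene, or the one it overlaps, where that gene was tested. There were 71 such pairs, 34 overlapping and 37 apart, and some neighbours served 2 models. In the 37, the distance ran from 31 to 346259 bases with a median of 7492 bases, so that the nearest coding gene was often not a close one. Both members rose in 3 pairs and both fell in 6, while 3 pairs had opposite calls, 19 had a call for the model alone, 14 for the neighbour alone and 26 for neither. Of the 31 models called in these pairs, 19 thus had a neighbour that was not called. For models not called, 14 neighbours were called and 26 were not. Over tested genes of at least 5 CPM 38.4% were called, so over all 71 pairs neighbours of called models were called at close to that share. The log2 fold changes had the same sign in 45 pairs, and Pearson's r was 0.16 and Spearman's rho 0.29 across pairs, as a description. In the 47 pairs whose model reached 5 CPM in both ages, both rose in 3 and both fell in 3, with opposite calls in 2. Of the 17 models called in these 47 pairs, 9 had a neighbour that was not called. For the models not called there, 7 neighbours were called and 23 were not. Pearson's r across the 47 pairs was 0.42 and Spearman's rho 0.37, higher than over all pairs and also a description.

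The 3 pairs that rose together were Gm43904 with Gp9, Gm49553 with Grap2 and Gm42517 with Pigg. Pigg, 16718 bases from the model, which acts in the synthesis of glycosylphosphatidylinositol anchors, averaged 19.3 ± 4.25 CPM at P7, against 5.70 ± 2.16 CPM in adult libraries (mean ± SD, n = 5 each) and rose by 1.76 ± 0.29 (SE) on the log2 scale (edgeR adjusted p = 0.000511). Among pairs that fell together, Gm35041 lies 10259 bases from Max, the dimer partner of MYC, which averaged 170 ± 30.8 CPM at P7, against 501 ± 135 CPM in adults and fell by 1.56 ± 0.19 (SE; edgeR adjusted p = 5.63e-05). Gm34590 lies 47422 bases from Zfp706, Gm43672 lies 510 bases from the corepressor gene Tbl1xr1 and Gm28417 is opposite Ptpn18, and these neighbours fell by 0.85 ± 0.15, 0.88 ± 0.17 and 0.77 ± 0.19 (SE) on that scale.

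The pairs with opposite calls were Gm45716 with Mmd, Gm13842 with Prkab1 and Gm15283 with Hif1a. Prkab1, 1903 bases from its model, a regulatory subunit of the energy sensor AMPK, averaged 275 ± 43.3 CPM at P7, against 146 ± 54.6 CPM in adult libraries (mean ± SD, n = 5 each) and rose by 0.92 ± 0.24 (SE) on the log2 scale (edgeR adjusted p = 0.0122). Hif1a, a regulator of the response to low oxygen, was at 1.25 ± 0.131 CPM at P7, against 0.538 ± 0.198 CPM in adults and rose by 1.21 ± 0.39 (SE; edgeR adjusted p = 0.0301), against the lower level of Gm15283 on the other strand. Near genes of platelet function there were also falls without a change called in the neighbour, named after their values were seen. Gm13431 fell by 1.00 ± 0.18 (SE; edgeR adjusted p = 0.000789) 7492 bases from Ptgs1, the cyclooxygenase of thromboxane synthesis (log2 fold change -0.03 ± 0.14), and Gm37035 fell by 0.93 ± 0.18 (SE; edgeR adjusted p = 0.00195) opposite the ADP receptor gene P2ry1 (log2 fold change -0.15 ± 0.16).

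**Figure D4:**
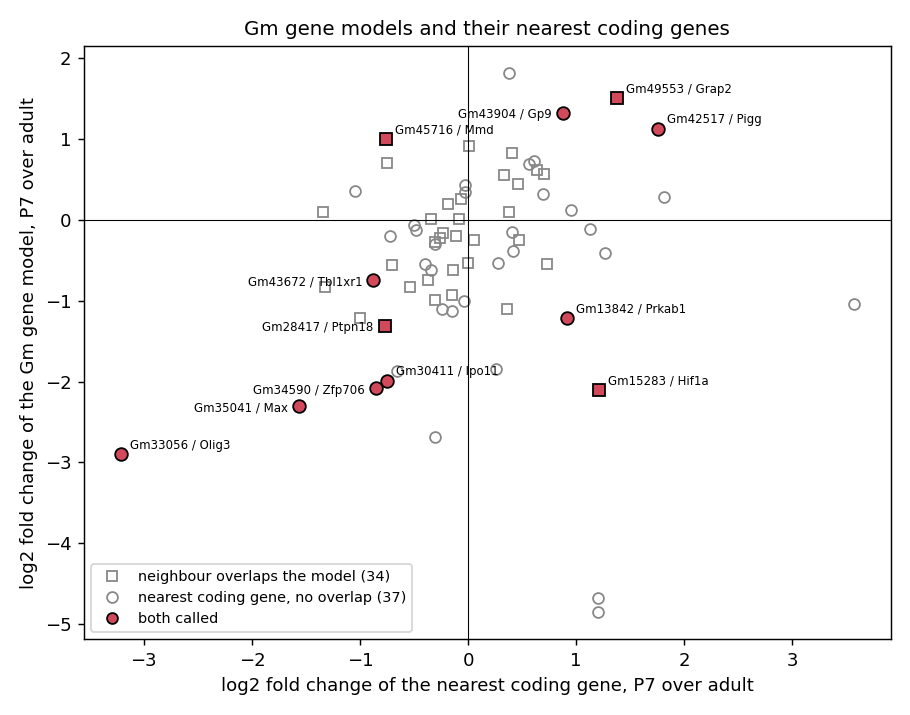
Log2 fold change, P7 over adult, of each Gm model (vertical) against that of its nearest or overlapping coding gene (horizontal) for 71 pairs; squares overlap, circles do not overlap their nearest coding gene, and filled points had both rows called. Of the filled points, 9 lie in the quadrants where both moved the same way and 3 where they moved apart, and the lowest circles, at right, are Gm32224 and Gm32123, whose nearest coding gene is the distant Zmiz1.

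Some models differed between libraries of the same age far more than between ages. For 5 models a library was at least 20 times another of the same age, against a median ratio of highest to lowest of 2.03 at P7 and 1.99 in adults over the 103. Gm10123, whose words were all found in Ppia, the cyclophilin A gene, had 24.3, 27.4, 0.161, 21.3 and 33.1 CPM in P7 A, B, C, E and I, against 39.5, 41.9, 43.0, 0.300 and 0.0574 CPM in adult A, B, C, G and H. In counts, P7 C had 4, adult G 7 and adult H 1, while the other 7 libraries had 530 to 976. Ppia averaged 734 ± 101 CPM at P7, against 1137 ± 93.7 CPM in adult libraries (mean ± SD, n = 5 each), a far smaller spread.

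Gm42743 had 183, 97, 84, 422 and 165 counts in P7 A, B, C, E and I, against 0, 2, 493, 1 and 0 counts in adult A, B, C, G and H, so 1 adult library carried nearly all of the adult signal. Gm8909, listed by RefSeq as H2-gs17 of the major histocompatibility complex, had 0.644, 6.77, 26.4, 12.3 and 19.7 CPM in P7 A, B, C, E and I, against 1.91, 1.42, 20.5, 31.8 and 1.20 CPM in adult A, B, C, G and H. Gm47021 ran from 0.362 to 17.4 CPM at P7 and from 0.0860 to 24.0 CPM in adults, and Gm20658 from 0.440 to 9.996 CPM at P7 and from 8.32 to 74.7 CPM in adults. Of these 5 models, named after their values were seen, Gm20658 was called (log2 fold change -2.59 ± 0.78, SE; edgeR adjusted p = 0.0331) and the other 4 were not.

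Gm28609 had 51.7, 71.9, 30.9, 78.4 and 65.2 CPM in P7 A, B, C, E and I, against 152, 190, 36.1, 27.2 and 30.3 CPM in adult A, B, C, G and H. The 2 high adult libraries are those with Y-linked transcripts, and the part of that difference in the result was not tested.

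**Figure D5:**
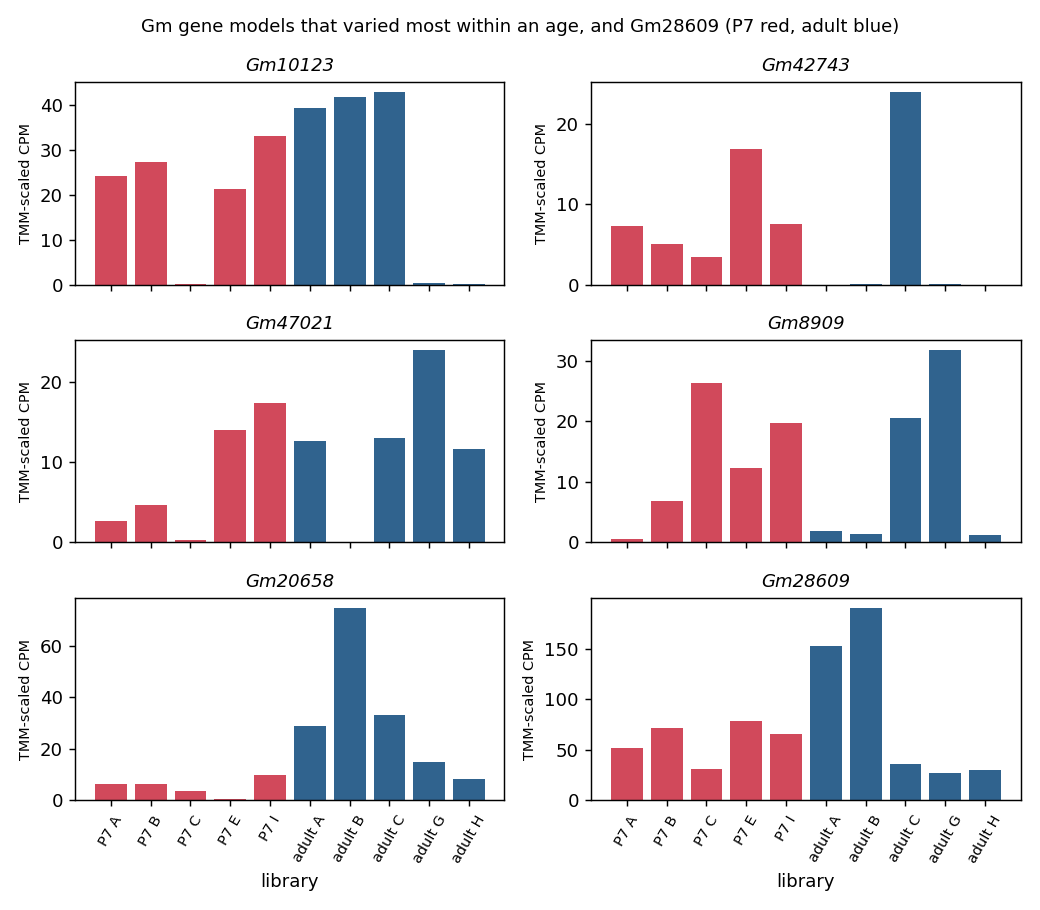
TMM-scaled CPM in each library (bars, 1 library each, axes from 0; P7 in red on the left, adult in blue on the right) of the 5 models with a ratio of at least 20 within an age and of Gm28609. Gm10123 is near 0 in P7 C, adult G and adult H, and adult C holds nearly all of the adult signal of Gm42743.

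Markers of other cells differed between ages in part. Summed over each list, erythroid markers were at 2033 to 3562 CPM at P7, against 1248 to 2760 CPM in adults, with 5 of the 16 tested genes (22 listed) called higher and 0 lower. Neutrophil markers were at 40.4 to 70.5 CPM at P7, against 13.0 to 36.6 CPM in adults, with 1 of 2 tested genes (14 listed) called higher and Ly6g and Cxcr2 at 0 in all libraries. B cell markers were at 9.05 to 28.3 CPM at P7, against 5.68 to 7.69 CPM in adults, with 1 of 3 tested genes (10 listed) called higher. The neutrophil and B cell sums did not overlap between ages, and the erythroid sums did. In the B cell list Ighm did not overlap, at 4.66 to 13.3 CPM at P7, against 1.95 to 3.81 CPM in adults. Iglc1 did not overlap either, at low levels of 0.322 to 0.920 CPM at P7, against 0 to 0.0975 CPM in adults. The B cell genes other than Ighm together did overlap, with their lowest P7 sum, 3.74 CPM, below their highest adult sum, 5.54 CPM. Trem1 alone gave 36.4 to 68.0 CPM of the neutrophil sum at P7, against 11.7 to 35.0 CPM in adults, and the other 13 neutrophil genes together 2.49 to 6.44 CPM at P7, against 1.09 to 1.71 CPM in adults.

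Monocyte markers were at 2400 to 3755 CPM at P7, against 2972 to 6163 CPM in adults, with 1 of 5 tested genes (10 listed) called higher and 1 lower. Most of that sum was Lyz2, which fell, while the other 9 summed to 161 to 305 CPM at P7, against 50.3 to 98.4 CPM in adults. Markers of T and NK cells were at 8.80 to 16.6 CPM at P7, against 13.7 to 24.2 CPM in adults, with 1 of 5 tested genes (12 listed) called lower. Hepatocyte markers were at 5.59 to 11.3 CPM at P7, against 19.1 to 33.9 CPM in adults, with the 1 tested gene (7 listed) called lower and Alb and Serpina1a at 0. That gene, Afp, gave 5.12 to 9.76 CPM at P7, against 18.98 to 33.9 CPM in adults, and the other 6 together 0.121 to 1.498 CPM at P7, against 0 to 0.143 CPM in adults. Endothelial markers, some of which megakaryocytes also express, were at 2778 to 5940 CPM at P7, against 3233 to 4224 CPM in adults, with 2 of 6 tested genes (8 listed) called higher. The part of other cells in the changes of the Gm models was not tested, and in bulk samples fewer cells of a type and less RNA per cell cannot be told apart.

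Around the level that defined the models, Gm49066, Gm9796, Gm33474 and Gm34590 lay just inside at means of 5.24, 5.17, 5.15 and 5.07 CPM, and Gm20139, Gm17018, Gm15441 and Gm14966 just outside at 4.97, 4.91, 4.83 and 4.77 CPM. Of those inside, Gm33474 and Gm34590 are described above, and Gm49066 and Gm9796 had log2 fold changes of -0.62 ± 0.36 and -0.20 ± 0.30 (SE), given without a test. Gm5069, a transcribed processed pseudogene of 47.2 CPM opposite Itpkb, was not called, with a log2 fold change of -0.19 ± 0.15 (SE; edgeR adjusted p = 0.373).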

How the data were processed

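Gene counts of 10 libraries were analysed as deposited by the authors: whole-number counts per gene symbol, with different totals and no normalization seen. Tools named in the submitters' processing notes, without their roles, are STAR 2.7.9a, Salmon 1.5.2, featureCounts of Subread 2.0.1 and fastp 0.23.1. Genome build, annotation and strand setting: not given in the sources used here. Amplification had no molecular identifiers.

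Genes were kept with filterByExpr (minimum count 10, minimum total 15), scaled with TMM and tested with edgeR 4.0.16 (limma 3.58.1, R 4.3.3) by the robust quasi-likelihood F test with age group as the only term. P-values were adjusted by Benjamini-Hochberg over all genes, and each SE belongs to a log2 fold change. Read-length words were counted in GENCODE M21 transcripts with Python 3.11.15.

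The models, marker lists and rules were chosen with earlier results of these data known. Named models were Gm32224 and Gm33056, the 15 most abundant, up to 15 called models without overlap per direction with the largest change, and 4 on each side of 5 CPM, with their neighbours and models beside a marker gene. The rule's categories of models with 1 library above a fixed share of the signal, and of models at 0 in 1 age, held 0 models. Alternatives were other scalings, filters and thresholds, DESeq2 1.42.0, limma-voom, other level minimums, a block on the shared letters and each library left out.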

Additional observations from a re-analysis of the deposited data

Results flagged for a closer look

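Of 68 groups of 5 libraries examined for the named models, 9 had a library that stood apart from the rest. Its gap to the nearest other exceeded the 95% critical value of Dixon's ratio, 0.71. Independent values with a normal distribution pass that limit about 1 time in 20. The CPM were not put on a log scale and the models share libraries, so the 9 groups are not compared with that rate. In P7 I, 6 models were far above the other P7 libraries. Gm50020 was at 447 CPM there, against 31.0 to 110 CPM in the other P7 libraries, Gm30411 at 94.0 CPM against 35.9 to 52.5, Gm1968 at 83 CPM against 48.0 to 52.5 and Gm13842 at 102 CPM against 40.3 to 57.2. Likewise Gm38414 was at 66.4 CPM against 30.7 to 36.1, and Gm15050 at 15.3 CPM against 3.44 to 4.87. Over all 103 models, the same limit was passed by P7 I in 14, and the share over all genes was not counted. Gm4285 stood at 15.2 CPM in P7 B, against 7.16 to 8.72 CPM in the other P7 libraries. Gm33474 stood at 0.840 CPM in P7 E, against 0.0402 to 0.161 CPM in the others. Gm43672 stood at 128 CPM in adult H, against 92.7 to 102 CPM in the other adult libraries.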

How the results depend on the processing

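The counts of Gm models called, 43 in all, changed most with the level that defines them, which also sets how many models there are. At a mean of at least 2 CPM, 77 were called, 65 of them lower. A minimum of 20 CPM left 5 models of at least 100 CPM and 33 of 20 to 100 CPM. Of those, 21 were called, 5 higher and 16 lower. These counts are not shares of a fixed set. With a change of at least 2-fold required, 6 rose. Over all genes, 2272 were called, against 1416 with the block on letters, 1228 at an adjusted p under 0.01 and 1366 with at least 2-fold; fewer libraries or stricter limits are part of each. Leaving out 1 library gave 36 to 47 models called, 10 to 13 higher and 26 to 37 lower, and 1843 to 2394 genes over all. By type, without P7 I and chosen after seeing the data, long noncoding models gave 3 higher and 26 lower, pseudogenes 3 and 8, coding models 3 and 0. Scalings, filters and tools gave 11 to 12 higher and 28 to 36 lower models. Of the 20 fits, every one called 29 models, 22 lower and 7 higher. Some of these, Gm32224, Gm33056 and Gm32123 among them, reached 5 CPM in 1 age alone and had to differ to some extent. The calls of such models are thus a description and no sign of a stable result.

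The letters A, B and C, shared by both ages, showed no pairing of the libraries by the measure used. The deviations of same-lettered libraries from their group means correlated at -0.038, 0.065 and 0.007. Those of libraries with different letters correlated at -0.096 to 0.111. The block on those 6 libraries called 43 models, 11 higher and 32 lower, of which 33 were among the 43 called with 10 libraries, and the same libraries without the block called 49. Under the block Gm10642, Gm13394 and Gm20492 were no longer called, at log2 fold changes of 0.81, 0.70 and 0.80.

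Of 646 values for the 34 named models, 620 kept direction and call, and 12 changed sign, all of models near 0. Gm15564 had -0.0136 with RLE scaling, -0.0135 in DESeq2, -0.0084 without a filter, -0.0941 with the block and -0.0942 without it, and -0.0262, -0.1418, -0.0721, -0.0429 and -0.0486 without P7 E, P7 I, adult B, C and G, with 0.1377 as the highest value with 1 library left out. Gm7809 had -0.0607 without P7 B and -0.022 without adult A, with 0.289 as the highest value with 1 library left out. Gm33474 was not called by limma-voom, at -5.11, and the cause was not tested. Gm16286, Gm28609 and Gm50020 were called in 3, 1 and 3 alternatives, among them Gm50020 without P7 I. Gm49066, which reached 5 CPM in adults alone, had log2 fold changes of -1.26 to -1.15 in 3 alternatives, as a description. Levels under 1 CPM rest on few counts and limit the precision of the largest falls.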
